A study of Mus musculus with 6 samples.

Results

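The genes described here make, carry, sense and remove retinoic acid, the vitamin A derivative that patterns the embryonic gut and other tissues. They are 10 genes of the 23233 gene lines in the table, taken by symbol: Rdh10, Aldh1a1, Aldh1a2, Aldh1a3, Crabp1, Crabp2, Cyp26a1, Cyp26b1, Cyp26c1 and Rarb. Each had exactly 1 line. Retinol is oxidised to retinaldehyde, chiefly by Rdh10 in the embryo, and then to retinoic acid by the Aldh1a retinaldehyde dehydrogenases. Crabp proteins bind retinoic acid inside the cell, Cyp26 cytochrome P450 enzymes oxidise it, and the nuclear receptors of the Rar family, paired with Rxr receptors, switch genes on through it. Retinoic acid is known to be needed for neural crest cells to enter and colonise the gut as the enteric nervous system, in which the receptor tyrosine kinase Ret acts.

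The RNA came from dissected guts of mouse embryos at E10.5. The 3 wildtype gut samples were compared with 3 samples of Ret null homozygotes. The strain given for all of them is C57BL/6J, and the embryos are described as male. Which part of Ret the allele lacks, and whether a sample pooled several embryos, is not given in the sources used here. For each genotype the table holds 1 FPKM value per gene, that is, fragments scaled to transcript length and library size. The p-values are from the authors' Cuffdiff test, and how it modelled the spread between these samples is not given. That spread may be technical in part, and the p-values measure nothing beyond it. No value per sample is given, so the spread between replicates cannot be shown and the depth is unknown. Errors after ± are standard errors of the log2 fold change (Ret null over wildtype) implied by the authors' test statistic. A gene is said to rise or fall only if its q, in the authors' deposited table, lay under 0.05. No q in the authors' deposited table was smaller than 0.000775, the value of every named gene that rose or fell unless another is stated.

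Ret itself went from 8.80 to 0.0354 FPKM (q = 0.0042 in the authors' deposited table). The labelled sex did not hold for every transcript: Xist, expressed from the inactive X chromosome of female cells, stood at 0.136 FPKM in wildtype gut and 31.8 FPKM in Ret null gut, and the Y-linked genes Ddx3y, Eif2s3y, Uty and Kdm5d fell 1.71-fold, 1.64-fold, 1.99-fold and 1.89-fold. Sex and genotype therefore cannot be told apart here. The 10 retinoic acid genes lie on chromosomes 1, 3, 6, 7, 9, 14 and 19, and none is on a sex chromosome. In whole tissue, fewer cells of a type and less RNA per cell cannot be told apart. Nor can genotype and the amount of neighbouring tissue dissected with the gut. Both limits hold for every change below.

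Of the 10 genes, 9 were tested by the authors, 3 rose (Aldh1a1, Aldh1a2 and Cyp26a1), 4 fell (Aldh1a3, Crabp1, Crabp2 and Cyp26b1) and 2 did not pass (Rdh10 and Rarb). Cyp26c1 was not tested. Among all 13430 tested genes 14.6% were called, 5.69% as higher and 8.88% as lower in Ret null gut. Calls were more frequent at low levels, taking the higher genotype's FPKM: 18.5% of genes under 2 were called, 19.6% between 2 and 10, 11.6% between 10 and 50 and 8.27% at 50 or above. The 3 members at 50 FPKM or more were Aldh1a2, Crabp1 and Crabp2, and each of them was called. The median log2 fold change of the tested members was 0.12, against 0.01 over all tested genes. Among the called members, synthesis (Aldh1a1 and Aldh1a2 higher, Aldh1a3 lower) and degradation (Cyp26a1 higher, Cyp26b1 lower) each held changes in both directions. The Crabp pair moved the same way. An alternative p was read off the normal distribution from the deposited statistic, is called the normal p below, was adjusted over all genes with a statistic, and called 4.5% of them. Of the members, Aldh1a3, Crabp1, Crabp2 and Cyp26a1 then remained, and the calls of Aldh1a1, Aldh1a2 and Cyp26b1 were lost.

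**Figure D1:**
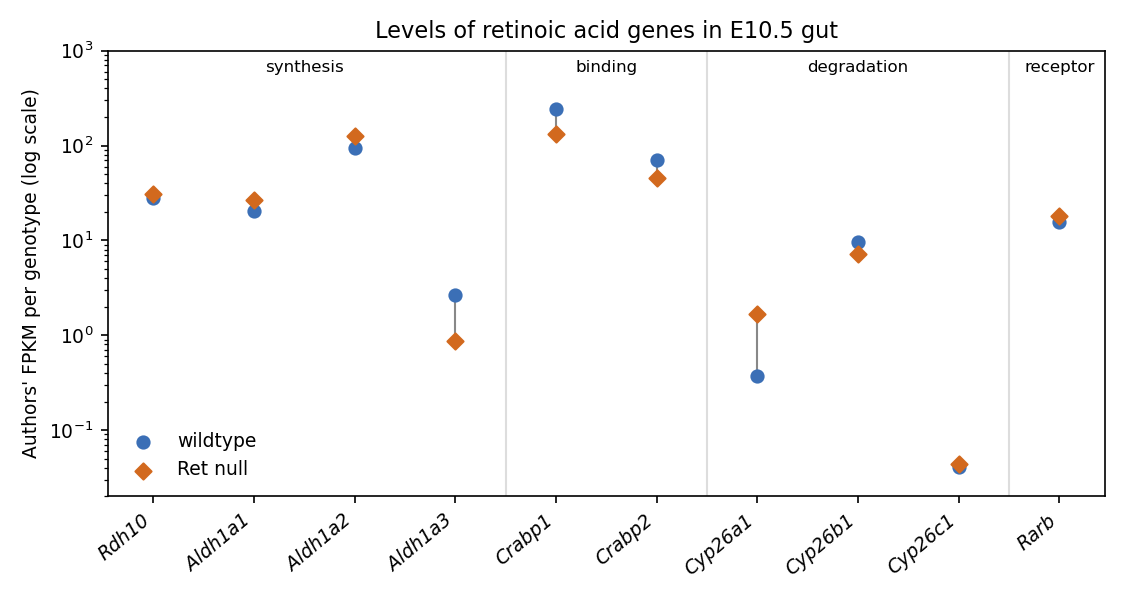
FPKM of each gene in wildtype (blue circles) and Ret null (orange diamonds) gut on a log axis, ordered by role, with 1 authors' value per genotype and no error bars. Crabp1 had the highest value of the 10 in both genotypes (242 and 133 FPKM) and Cyp26c1 the lowest.

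Aldh1a2 was the most abundant of the 4 synthesis transcripts, and the 3 retinaldehyde dehydrogenase genes did not move together. Aldh1a2, the main retinoic acid synthesising enzyme of trunk mesoderm, stood at 93.8 FPKM in wildtype gut and 126 FPKM in Ret null gut. It rose 1.34-fold (log2 fold change 0.42 ± 0.17, q = 0.00145 in the authors' deposited table). Its level was above that of 94.9% of tested genes in wildtype and 96.2% in Ret null gut. The table's line spans the RefSeq gene exactly, chromosome 9, 71215789 to 71296243 (mm10).

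Aldh1a1, which also oxidises other aldehydes, rose to a similar degree from a lower level. It went from 20.2 to 26.9 FPKM, 1.33-fold (0.41 ± 0.19, q = 0.00924 in the authors' deposited table). In mm10 it runs on chromosome 19 from 20601982 to 20643462, the inner part of a RefSeq gene that begins at 20492583. The change of the Aldh1a2 to Aldh1a1 ratio was 0.01 ± 0.26 on the log2 scale, within its error. Aldh1a7 is a neighbour and near copy of Aldh1a1: their longest reading frames are 91.6% identical and their transcripts share a run of 100 bases, longer than a read of 75 bp. Its line, looked at after the values were seen, stood at 7.01 and 13.5 FPKM (0.94 ± 0.24), so reads may have been divided between these genes and the value of Aldh1a1 is uncertain. Aldh1a2 and Aldh1a3 share runs of at most 26 bases with the other dehydrogenases.

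Aldh1a3 moved the other way. This dehydrogenase of restricted sites such as the eye, nose and urogenital tract fell from 2.64 to 0.867 FPKM, 3.04-fold (-1.61 ± 0.44). Its line lies on chromosome 7, 66390893 to 66427477. Of the 13430 tested genes only 1.15% had a more negative log2 fold change. Adding 1 FPKM to each value, which weighs on low levels, gave -0.96. The change of the Aldh1a2 to Aldh1a3 ratio was 2.03 ± 0.47 on the log2 scale. Markers of the nephric and gonadal ridge were lower in the same Ret null value: of 14 tested, 10 fell and 2 rose, with Pax2 5.38-fold and Calb1 14.1-fold lower. The summed level of all 15 went from 156 to 130 FPKM, and none was listed at 0. Their part in the fall of Aldh1a3 was not tested. This and all other marker lists were chosen with earlier results of these data known, and 14.6% of all tested genes were called.

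Rdh10, the short-chain dehydrogenase that makes retinaldehyde, had nearly the same value in both genotypes. It stood at 28.3 FPKM in wildtype gut and 30.8 FPKM in Ret null gut (0.12 ± 0.17, q = 0.599 in the authors' deposited table) and did not pass. Its line matches the RefSeq gene on chromosome 1, 16105882 to 16132550. Summed over the 3 dehydrogenase genes the level was 117 FPKM in wildtype gut and 154 FPKM in Ret null gut. Aldh1a2 held 80.4% of that sum in wildtype and 81.9% in Ret null gut, Aldh1a1 17.3% and 17.5%, and Aldh1a3 2.26% and 0.564%. The fall of Aldh1a3 was therefore small in FPKM beside the gain of Aldh1a2.

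**Figure D2:**
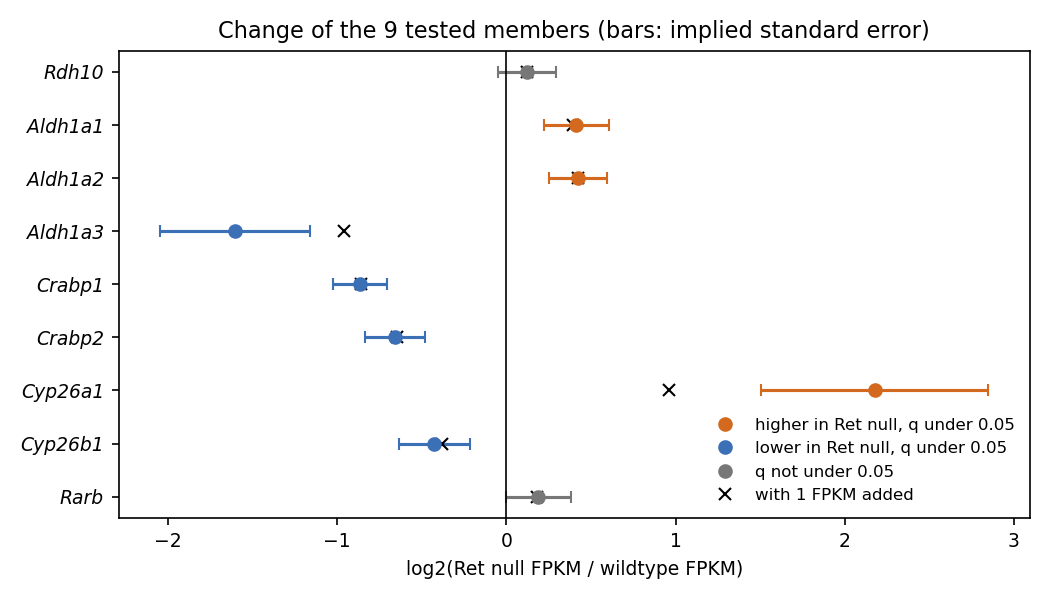
Log2 fold change (Ret null over wildtype) of the 9 tested members with bars of 1 implied standard error. Orange points rose, blue points fell and grey points did not pass q under 0.05, and black crosses give the value with 1 FPKM added to both genotypes, which moves Cyp26a1 and Aldh1a3 to 0.96 and -0.96.

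Both genes of the cellular retinoic acid binding proteins fell, and Crabp1 held the largest change in FPKM of the 10 genes (a loss of 109 FPKM, beside a gain of 32.1 FPKM for Aldh1a2). Crabp1, a small cytosolic carrier known for its high expression in neural crest and developing neurons, stood at 242 FPKM in wildtype gut and 133 FPKM in Ret null gut. It fell 1.82-fold (-0.87 ± 0.16). Its line lies on chromosome 9, 54764808 to 54773109. Crabp1 stayed among the most abundant messages, above 98.2% of tested genes in wildtype and 96.4% in Ret null gut.

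Crabp2, which delivers retinoic acid to nuclear receptors, stood at 71.1 and 45.1 FPKM and fell 1.58-fold (-0.66 ± 0.18). Its line matches the RefSeq gene on chromosome 3, 87948693 to 87953372. Both genes fell by amounts that did not differ beyond their error: the change of the Crabp1 to Crabp2 ratio was -0.21 ± 0.24 on the log2 scale, and the ratio itself was 3.40 in wildtype and 2.94 in Ret null gut. Their longest reading frames are 70.8% identical, with a longest shared run of 11 bases between the transcripts, so few reads could fit both. Their summed level was 313 FPKM in wildtype gut and 178 FPKM in Ret null gut.

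Markers of enteric crest progenitors and neurons moved with the Crabp genes. Of 12 tested crest markers 10 fell and 1 rose, and their summed level went from 145 to 111 FPKM. Of 14 tested neuronal markers 12 fell and 1 rose, and the sum went from 221 to 132 FPKM, with the acetylcholine receptor subunit gene Chrna3 6.08-fold and the neuronal tubulin gene Tubb3 3.44-fold lower. No marker of either list was at 0. Both Crabp falls were smaller on the log2 scale than the medians of the crest list (-1.42) and of the neuronal list (-0.95). Lists of other tissues had medians below 0 too: -0.92 for lung and anterior foregut, -1.24 for nephric and gonadal ridge and -3.56 for somite and skeletal muscle. The remaining marker lists had medians above 0. The part of crest and neuronal cells in the fall of Crabp1 and Crabp2 was not tested.

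Among the genes that remove retinoic acid, Cyp26b1 and Cyp26a1 changed in opposite directions and Cyp26c1 was close to 0. Cyp26b1 was the main family member, at 9.63 FPKM in wildtype gut and 7.17 FPKM in Ret null gut. It fell 1.34-fold (-0.42 ± 0.21, q = 0.00566 in the authors' deposited table), and its line matches the RefSeq gene on chromosome 6, 84571414 to 84593908. Cyp26a1, the family member best known as a retinoic acid induced gene, rose from 0.369 to 1.67 FPKM, 4.52-fold (2.18 ± 0.67, q = 0.00206 in the authors' deposited table). That fold rests on a wildtype value below that of nearly every tested gene (percentile 0.439), and adding 1 FPKM to each value gave 0.96 on the log2 scale. Only 154 tested genes with a fold change had a larger absolute log2 fold change than Cyp26a1.

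Cyp26c1 stood at 0.0412 and 0.0436 FPKM and was not tested. RefSeq places Cyp26c1 and Cyp26a1 beside each other on chromosome 19 with 4417 bases between them. The table's lines run from 37685680 to 37693307 for Cyp26c1 and from 37697808 to 37701536 for Cyp26a1. Whether the neighbours differed in their change was not tested. Over the 3 genes the sum was 10.04 FPKM in wildtype gut and 8.88 FPKM in Ret null gut. The share of Cyp26b1 in it was 95.9% and 80.7%, and that of Cyp26a1 3.68% and 18.8%. The ratio of Cyp26b1 to Cyp26a1 was 26.1 in wildtype and 4.30 in Ret null gut, a change of -2.60 ± 0.70 on the log2 scale.

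Markers of the tailbud, hindgut and cloaca, where Cyp26a1 is known to be expressed, were mostly too low to test. Of 12 listed, 8 were under 1 FPKM in both genotypes and 4 were tested, of which Hoxd13 (2.49 and 5.97 FPKM) and Cdx2 (6.17 and 12.2 FPKM) rose and 0 fell in the Cuffdiff test. Before adjustment (p under 0.05) the counts were also 2 higher and 0 lower, and by the normal p again 2 and 0. Cdx2 is also on the gut epithelium list, where 11 of 13 tested genes rose. Of the list's defining markers, the tailbud gene T stood at 0.857 and 0.865 FPKM, and Msgn1 was listed at 0 in both genotypes and Cdx4 in Ret null gut. The list's sum went from 13.4 to 23.3 FPKM. The part of hindgut tissue in the rise of Cyp26a1 was not tested.

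Rarb encodes the retinoic acid receptor beta and is itself a textbook target of the pathway. It stood at 15.8 FPKM in wildtype gut and 18.0 FPKM in Ret null gut (0.19 ± 0.19, q = 0.346 in the authors' deposited table) and did not pass. The line runs on chromosome 14 from 16430840 to 16575210, shorter than the RefSeq gene, whose end is at 17082331. In the GENCODE annotation Top2b, on the opposite strand, reaches 4623 bases into Rarb. The table's line of Top2b, at 56.4 and 52.4 FPKM, ends at 16430787, before the line of Rarb begins. Whether strand was used in counting is not given, so reads of the annotated overlap cannot be assigned and the value of Rarb is uncertain.

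Rarb and Cyp26a1 carry the same kind of retinoic acid response element beside their start sites. Promoter sequence from RefSeq (GRCm38.p6, the same build as mm10) was found for 7 of the 10 genes, without Rdh10, Aldh1a3 and Crabp2. The 250 bases before the start are shown for both genes, 5′ to 3′ on the strand of the gene, because the element is known to bind Rar and Rxr receptors. Capitals mark a direct repeat with a spacer of 5 bases, searched on both strands. Each half-site may read AGGTCA or AGTTCA or GGGTCA or GGTTCA.
Rarb (chr14:16575477-16575726, minus strand): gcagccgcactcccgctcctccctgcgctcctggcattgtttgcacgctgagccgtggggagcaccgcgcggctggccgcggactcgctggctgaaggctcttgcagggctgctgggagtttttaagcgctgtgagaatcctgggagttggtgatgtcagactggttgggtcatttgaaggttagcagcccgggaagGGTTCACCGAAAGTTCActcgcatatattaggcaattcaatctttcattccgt
Cyp26a1 (chr19:37697558-37697807, plus strand): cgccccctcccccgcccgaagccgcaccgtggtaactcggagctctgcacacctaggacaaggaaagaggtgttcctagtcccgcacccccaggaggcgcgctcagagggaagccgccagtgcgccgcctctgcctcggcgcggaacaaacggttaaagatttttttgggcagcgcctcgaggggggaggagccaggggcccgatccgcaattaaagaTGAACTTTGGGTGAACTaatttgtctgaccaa

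The repeat ends 36 bases before the start of Rarb that the promoter table uses (16575476) and 15 bases before that of Cyp26a1 (37697808). Both genes have an outer boundary elsewhere in RefSeq: the span of Cyp26a1 begins at 37697738, so that the repeat lies inside it, and Rarb, read from the minus strand, reaches out to 17082331. In Cyp26a1 it lies on the opposite strand, where it reads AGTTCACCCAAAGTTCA. The Rarb repeat reads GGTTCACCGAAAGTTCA, and 15 of the 17 bases are identical. The start of Rarb used here lies 266 bases outside the table's line, and the outer RefSeq boundary lies much farther out. The search, for the members as for all genes, covered windows reaching from 250 bases before to 50 after the start. Of 32851 such RefSeq windows, 32 held such a repeat (0.0974%), and 0.588% held a repeat of the same half-sites with a spacer of 1, 2 or 5 bases. The windows of Aldh1a1, Aldh1a2, Crabp1, Cyp26b1 and Cyp26c1 held none of these letters. With 1 mismatch allowed, 1.75% of windows held the repeat with a spacer of 5 bases, and among the members it was again found only in Rarb and Cyp26a1.

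The pair that shares the repeat differed in level and in change. Rarb stood 42.8-fold above Cyp26a1 in wildtype and 10.8-fold above it in Ret null gut. Cyp26a1 rose and Rarb did not pass, and the difference between their log2 fold changes was 1.99 ± 0.70. Of 31 genes with this repeat in a promoter window, 9 had a line in the table and 7 were tested, of which 2 rose (Cyp26a1 and Blvrb) and 2 fell (Prokr2 and Hbb-y), named after their values were seen. That is 4 of 7, beside 14.6% of all tested genes, a number too small to read further. For Blvrb q was 0.0149 and for Hbb-y 0.00468 in the authors' deposited table. The promoters also differed in composition: GC made up 77.6% of the 250 bases before the start of Aldh1a2 and 46.4% of those before the start of Aldh1a1 that lies next to the table's line, against a median of 52.4% over all windows.

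**Figure D3:**
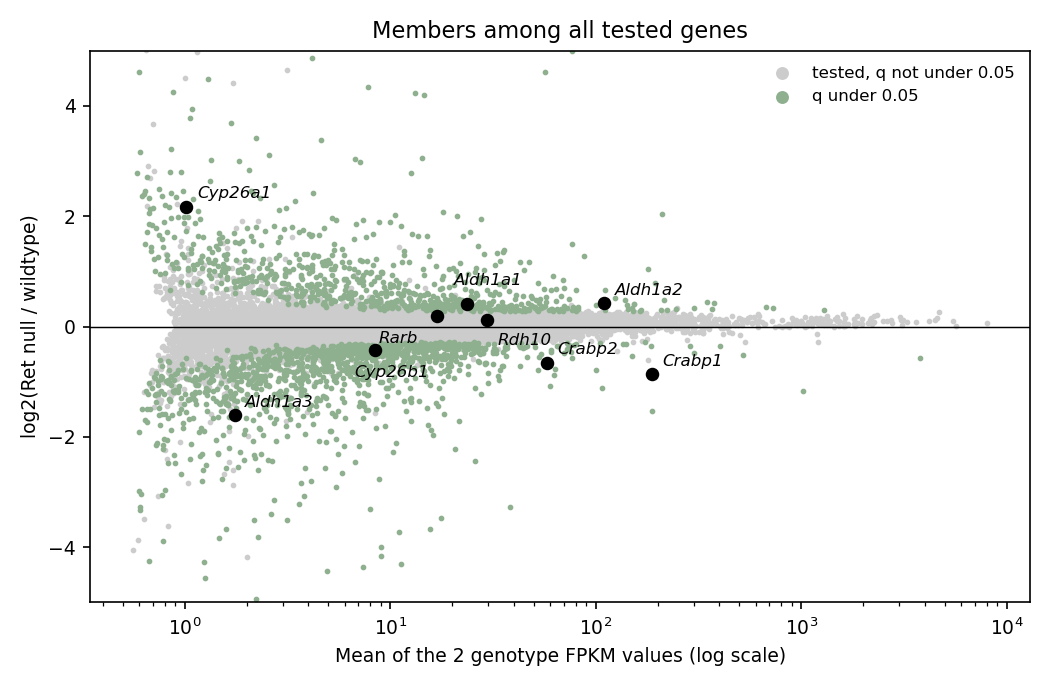
Log2 fold change of every tested gene against the mean of its 2 FPKM values (log axis), with called genes in green and the 9 tested members in black. Crabp1, Crabp2 and Aldh1a2 sit at high levels where 8.27% of genes were called, Cyp26a1 and Aldh1a3 at low levels, and 18 genes lie outside the plotted range.

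Set side by side per role, the sums changed unequally. FPKM is scaled to length, so levels may be added and compared between genes, but the ratios here are descriptions with no test. The dehydrogenase sum was 1.32-fold higher in Ret null gut (0.40 ± 0.14 on the log2 scale), the Crabp sum 1.76-fold lower (-0.82 ± 0.13) and the Cyp26 sum 1.13-fold lower (-0.18 ± 0.20). The ratio of dehydrogenase to Cyp26 transcripts was 11.6 in wildtype and 17.3 in Ret null gut. Its change was 0.57 ± 0.25 on the log2 scale. The sums behind this ratio rest mostly on Aldh1a2, Aldh1a1 and Cyp26b1, whose calls were lost with the normal p. The value of Aldh1a1 is also uncertain because of Aldh1a7. The ratio of dehydrogenase to Crabp transcripts was 0.373 and 0.865, a change of 1.21 ± 0.19 on the log2 scale. No retinoic acid was measured.

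In the rest of the pathway, 8 of 59 tested genes rose and 8 fell (27.1% called, beside 14.6% of all tested genes), with a median log2 fold change of 0.00. By the normal p, which called 4.5% of all genes with a statistic, 3 rose and 2 fell. Both counts of falls include Ret, whose loss is set by the genotype itself. None of the 5 other retinoid receptor genes passed Cuffdiff's test. Before adjustment (p under 0.05) 1 was higher and 1 lower, and by the normal p 0 were called. Rara stood at 20.6 and 21.2 FPKM, Rarg at 15.2 and 14.3, Rxra at 21.1 and 24.8, and Rxrb at 33.1 and 35.6. Rxrg was the lowest, at 2.43 and 1.62 FPKM (-0.58 ± 0.53). With Rarb at 15.8 and 18.0 FPKM, the 3 Rar genes had levels within a narrow range in both genotypes.

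Among the genes of retinol uptake, storage and carriage, Rbp4 and Ttr rose and 6 of the 8 tested did not pass, with a median log2 fold change of 0.05. Rbp4, the retinol binding protein that carries retinol in blood, rose from 11.4 to 44.1 FPKM (1.95 ± 0.29), and Ttr, encoding transthyretin, its partner in plasma, from 6.66 to 20.8 FPKM (1.64 ± 0.27). In this list 0 genes fell by Cuffdiff's q. Before adjustment (p under 0.05) 2 were higher and 1 lower, and by the normal p 2 and 0. Hepatic markers moved with them: 12 of 14 rose and 0 fell, and none was at 0. Their sum, which includes Ttr, went from 36.7 to 357 FPKM, with Alb at 0.433 and 72.8 and Afp at 4.68 and 148 FPKM. The part of liver tissue in the rise of Rbp4 and Ttr was not tested. Of 12 other retinol and retinal oxidoreductases 1 rose, Dhrs3, which returns retinaldehyde to retinol. It went from 22.5 to 28.6 FPKM (0.34 ± 0.22, q = 0.0419 in the authors' deposited table), a call lost with the normal p.

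Of 18 tested carriers and receptor cofactors 4 fell and 0 rose by Cuffdiff's q. They were Nrip1, a corepressor that binds nuclear receptors (-0.76 ± 0.25), the orphan receptor gene Nr2c2 (-0.81 ± 0.40), the histone methyltransferase gene Nsd1 (-0.31 ± 0.18) and Cnot1, the scaffold of the deadenylase complex (-0.33 ± 0.18). The authors' deposited table gives q of 0.0222 for Nr2c2, 0.0242 for Nsd1 and 0.0164 for Cnot1. All 4 were lost with the normal p, and before adjustment (p under 0.05) 1 was higher and 5 were lower.

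Textbook retinoic acid targets, apart from the members, moved both ways: 6 of 21 tested rose and 4 fell. That is 47.6% called, beside 14.6% of all tested genes. The falls include Ret, whose loss is set by the genotype itself. Among them Isl1, a homeobox gene that the neuronal list also holds, rose by 0.75 ± 0.19, Hoxb4 by 0.57 ± 0.21, Hoxa2 by 0.56 ± 0.26 and Tshz1 by 0.39 ± 0.18, beside Dhrs3. Hoxd4 fell 2.08-fold to 10.1 FPKM and Tbx1 1.99-fold to 1.89 FPKM, beside Ret. The authors' deposited table gives q of 0.00145 for Hoxb4, 0.0109 for Hoxa2, 0.00206 for Tshz1 and 0.00797 for Tbx1. The list's median log2 fold change was 0.22, against 0.01 over all tested genes. By the normal p, which called 4.5% of all genes with a statistic, 1 target rose and 2 fell, Ret again among the falls.

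**Figure D4:**
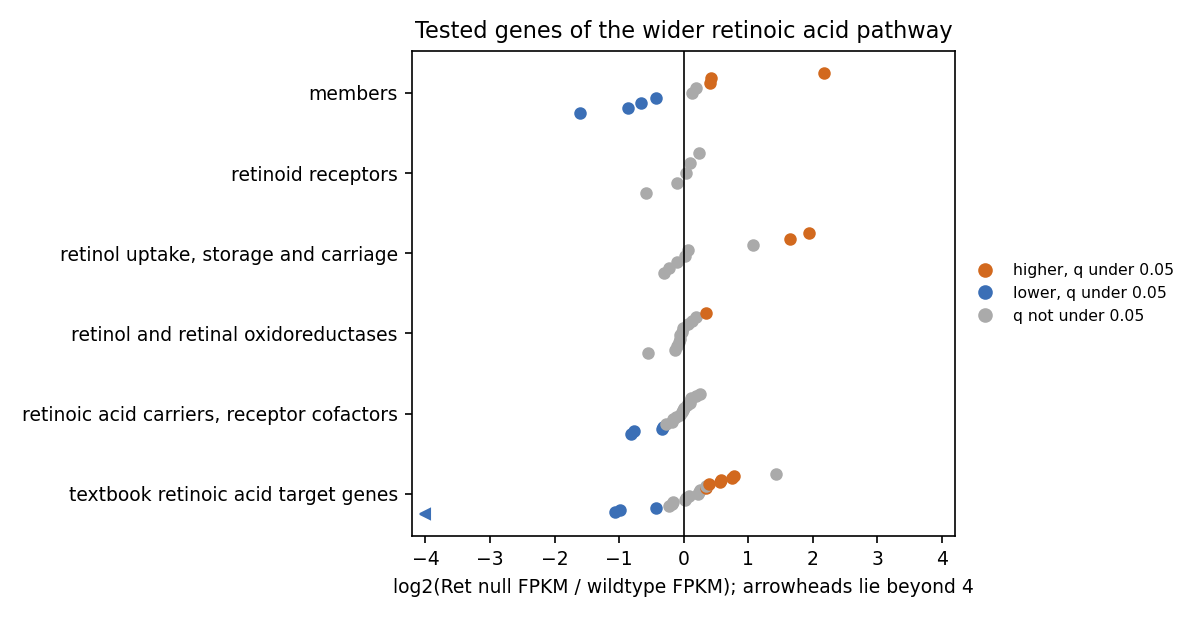
Log2 fold change of each tested gene in the members and in 5 lists of the wider pathway (members left out of the lists), in orange where it rose, blue where it fell and grey where q was not under 0.05. The 5 receptors lie between -0.58 and 0.23 without a call, and the arrowhead marks Ret, which lies beyond the axis.

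Markers of other tissues that a dissected gut can hold changed widely, also beside the members. Their lists, too, were chosen with earlier results of these data known, and 14.6% of all tested genes were called. Of 13 tested genes of gut mesenchyme and smooth muscle 10 rose and 0 fell, with the stomach mesenchyme gene Barx1 at 4.46 and 109 FPKM and Nkx2-5 at 1.14 and 5.05 FPKM, and the list's sum went from 395 to 883 FPKM. Of 13 tested epithelial genes 11 rose and 0 fell, with Foxa2 5.37-fold and Ihh 3.89-fold higher and a sum of 186 and 378 FPKM. Mesothelium and coelomic lining, where Aldh1a2 is known to be expressed, held 3 rises and 3 falls among 10 tested genes, with Krt19 1.81-fold higher and Tbx18 2.26-fold lower and a sum of 275 and 327 FPKM. Krt19 is also on the epithelial list. Of 10 tested genes of somite and skeletal muscle, another site of Aldh1a2, 8 fell, 0 rose and 2 did not pass. Myh3 was 20.4-fold and Myog 15.9-fold lower, the list's sum was 96.7 and 17.7 FPKM, and Myf6 was at 0 in wildtype. The part of these tissues in the rise of Aldh1a2 was not tested.

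The remaining lists were smaller. Of 6 tested pancreatic genes 4 rose and 1 fell, with Nkx6-1 at 0.649 and 3.57 FPKM, Gcg 2.55-fold higher and a sum of 28.2 and 64.9 FPKM. Lung and anterior foregut genes gave 2 rises and 5 falls of 9 tested, with Sox2 3.84-fold higher and Irx1 4.19-fold lower and a sum of 145 and 165 FPKM. By the normal p 2 rose and 2 fell. Spinal cord and hindbrain genes, a tissue with Crabp1 and Cyp26 expression, gave 3 rises and 2 falls of 6 tested, with Nkx6-1 again and Mnx1 6.24-fold higher (q = 0.00145 for Mnx1 in the authors' deposited table). Both are also on the pancreatic list, and by the normal p the spinal cord counts were 2 and 0. Of 13 listed, 7 were under 1 FPKM in both genotypes, Olig2 was at 0 in both and Olig3 in wildtype, and the sum was 14.8 and 19.5 FPKM. Where a marker list had 0 calls in a direction by Cuffdiff's q, before adjustment (p under 0.05) at most 1 of its genes passed that way, and by the normal p 0 did.

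**Figure D5:**
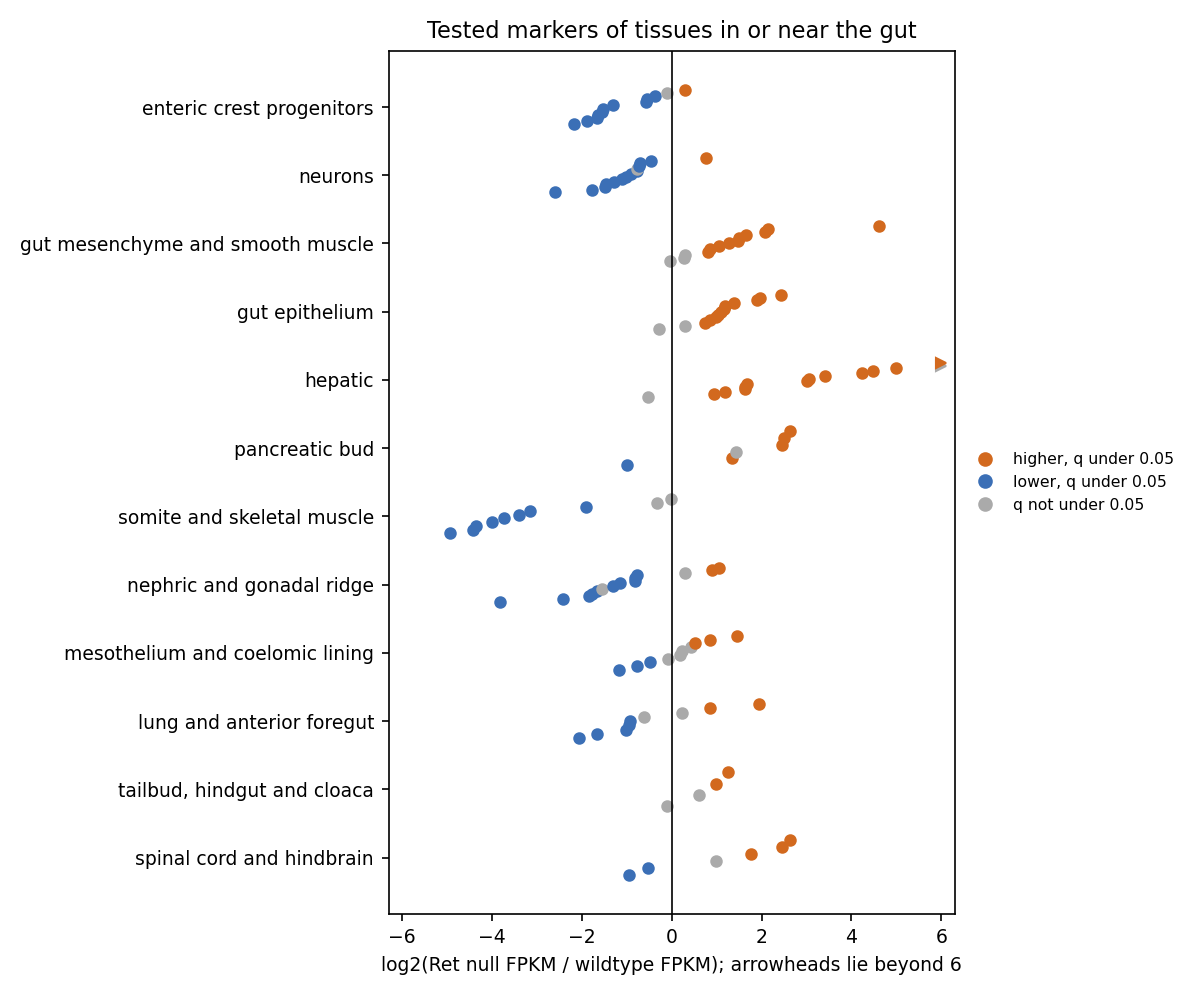
Log2 fold change of each tested marker in 12 lists of tissues in or near the gut, coloured as in the plot of pathway lists, with arrowheads for values beyond 6. Crest, neuronal, somite and nephric markers lie mostly below 0, and mesenchymal, epithelial and hepatic markers mostly above 0.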

How the data were processed

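Gut RNA of 3 wildtype and 3 Ret null mouse embryo samples (E10.5) was enriched for mRNA on oligo dT beads and sequenced in read pairs of 75 bp, per the labels' protocols and the series design. Per the submitters' processing notes, the build was mm10 and the tools were TopHat2, Picard, Cufflinks and Cuffdiff. Their versions and settings, and which gene annotation was used, are not given. From these the authors deposited 1 gene table with 1 FPKM value per genotype made from all libraries of that genotype. Its columns name the genotypes w and h, read here as wildtype and homozygous null. The authors' deposited p-value, q-value and test statistic were used as they stand, the statistic being a score, the log2 fold change over its error. A Benjamini-Hochberg adjustment of the p-values gives the same q over the 13430 tested genes to within 5.94e-05. Of 23234 lines, 1 held records run together and was not used.

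Log2 fold changes were recomputed from FPKM (Python 3.11.15, pandas 2.3.3), and the standard error is the log2 fold change divided by the statistic. For sums and ratios errors were combined as if independent. The test was the authors' q under 0.05. The alternative normal p used the statistic as a normal deviate (scipy 1.17.1) over all but 8 tested genes without one. It was checked on simulated statistics drawn as normal, which cannot show whether the authors' statistic is normal. Starts in the table count from 0 and were raised by 1. Reading frames are the longest in GENCODE M21 transcripts, aligned with Biopython 1.88. The members and lists (5 of the pathway, 12 of markers) were chosen with earlier results of these data known. Named genes are all members, called pathway genes and all receptors, and up to 2 called genes in each marker list (smallest q, ties by largest change). Defining markers (T) and markers at 0 are named too. Other genes are said to be named after their values were seen, or check the labels (Ret, Xist and Y-linked genes) or an overlap (Top2b). A few genes that this rule names are not reported here.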

Additional observations from a re-analysis of the deposited data

How the results depend on the processing

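The 7 calls among the members were kept at q under 0.01, q under 0.1 and a minimum of 1 FPKM. A minimum of 5 FPKM left out Cyp26a1 and Aldh1a3 and gave 5. A minimum change of 1.5-fold gave 4 called members (1 higher), and so did the normal p (4, with 1 higher). Both lost Aldh1a1, Aldh1a2 and Cyp26b1, whose changes are under 1.5-fold. In the wider pathway, with Ret counted among the lower genes, 16 genes became 9 at 1.5-fold (4 higher, 5 lower). By the normal p 5 were left (3 higher, 2 lower), and at q under 0.01 the number lower was 5. Over all tested genes 1956 calls became 1192 at a minimum of 5 FPKM, 1158 at 1.5-fold and 604 by the normal p. Centring on the median of tested genes (0.01) or equal 75th percentiles (a shift of -0.04 on the log2 scale) turned no member's direction, and neither did adding 0.1 or 1 FPKM. Why the authors' p and the normal p differ was not tested. No paired analysis was possible because the table gives 1 value per genotype, and leaving out a replicate could not be run for the same reason.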
